A study of Mus musculus with 2 samples.

Results

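The genes described here are 43 ligands and receptors of axon guidance, out of 21938 protein-coding genes in the GENCODE annotation of mm10 (GRCm38). They were chosen by family: 3 Slits and 3 Robo receptors, 6 netrin receptors, 10 semaphorins, 9 plexins and neuropilins, 7 Eph receptors and 5 ephrins. Not every gene of these families was included, and the choice was made with earlier results of these data known. Genes left out are described near the end of the results. A consensus ATAC-seq interval that overlapped a transcription start site (TSS) of one of these genes was taken as part of its promoter, and any other interval whose nearest TSS was that of the gene was called distal. By this rule 1322 of 119502 intervals belonged to the axon guidance genes, 46 at a TSS and 1276 distal.

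Both libraries were live-cell ATAC-seq, in which the transposase Tn5 cuts and tags open chromatin. The cells were neural progenitors made from an Olig2-mKate2 mouse embryonic stem (ES) cell line, in which the red fluorescent protein mKate2 is expressed from the Olig2 gene, and each of the 2 replicates used 50000 sorted cells. Differentiation lasted to day 5, and only its later part had 100 nM SAG, an activator of Shh signalling, and 100 nM retinoic acid (RA). There was 1 genotype, 1 dose and 1 time, so no condition could be compared.

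All cells came from this reporter line, whose mKate2 signal marks cells that express Olig2, which encodes the defining factor of motor neuron progenitors (pMN). By the study's own account the sort also takes in newly formed motor neurons and cells that carry Nkx2-2 protein beside Olig2. The labels do not say whether the replicates were separate cultures, so the spread between them, given below as the SD of 2 values, may be technical. The libraries held 31876165 and 31672240 counts in intervals. The median member interval held 57.5 counts in replicate 1 and 60 in replicate 2, and 0 member intervals were empty in either library.

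Growing axons carry receptors that read attractive and repulsive cues in the tissue around them. Slits repel axons through Robo receptors, netrins attract through Dcc and repel through Unc5 receptors, semaphorins act through plexins with or without neuropilins, and ephrins signal between touching cells through Eph receptor tyrosine kinases. In the ventral neural tube these systems set where axons cross the midline, where motor axons leave the cord and which side of the limb they enter. Many of the receptors and ligands are also used by the progenitors and blood vessels of the same tissue.

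Accessibility in this report is a density, the count of an interval divided by the DESeq2 size factor of its library and by its length in kb (normalised counts per kb). It is a property of chromatin and not a level of RNA or protein. In a bulk library, fewer cells with an open site cannot be told apart from a weaker opening in every cell. The sequences below show where in the genome the strongest distal signal of each family lay. Each is the central 200 bases of the densest distal interval of its family, on the plus strand of GRCm38, read from the RefSeq copy of that assembly (GRCm38.p6). All 6 intervals were inside an intron of the gene they are named after, and none of the windows overlaps an exon. Capitals mark every match, on either strand, to CAGATG or CAGCTG (E-boxes), ACAAAG (SOX), TAATTA (homeodomain), GACCACCCA (GLI) or AGGTCA (nuclear receptor half-site).

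Efna5 distal, chr17:62778144-62778343: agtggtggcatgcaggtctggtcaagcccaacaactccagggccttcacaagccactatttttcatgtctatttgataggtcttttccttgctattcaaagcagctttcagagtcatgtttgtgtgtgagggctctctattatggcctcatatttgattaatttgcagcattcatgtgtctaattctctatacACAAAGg
Epha4 distal, chr1:77502831-77503030: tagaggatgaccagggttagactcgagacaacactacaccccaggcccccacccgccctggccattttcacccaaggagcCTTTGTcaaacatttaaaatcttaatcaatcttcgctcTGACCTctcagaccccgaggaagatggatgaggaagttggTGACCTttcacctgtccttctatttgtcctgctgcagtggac
Slit1 distal, chr19:41670771-41670970: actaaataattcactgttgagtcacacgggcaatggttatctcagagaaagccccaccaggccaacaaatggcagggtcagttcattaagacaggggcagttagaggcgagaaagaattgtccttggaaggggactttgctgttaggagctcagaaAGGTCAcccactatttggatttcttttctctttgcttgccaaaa
Sema3a distal, chr5:13529339-13529538: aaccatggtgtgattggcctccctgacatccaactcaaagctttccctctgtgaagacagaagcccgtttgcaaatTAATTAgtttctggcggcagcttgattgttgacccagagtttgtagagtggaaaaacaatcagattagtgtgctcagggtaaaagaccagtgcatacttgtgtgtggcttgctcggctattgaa
Unc5d distal, chr8:28855461-28855660: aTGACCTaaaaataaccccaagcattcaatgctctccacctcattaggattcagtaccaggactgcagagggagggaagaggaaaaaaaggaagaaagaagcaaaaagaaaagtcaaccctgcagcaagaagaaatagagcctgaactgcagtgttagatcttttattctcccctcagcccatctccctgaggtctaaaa
Plxna2 distal, chr1:194629353-194629552: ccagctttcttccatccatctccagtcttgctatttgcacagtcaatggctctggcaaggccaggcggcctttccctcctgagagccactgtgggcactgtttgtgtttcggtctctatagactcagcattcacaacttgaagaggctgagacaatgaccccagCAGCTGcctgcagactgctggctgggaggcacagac

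The Efna5 window had 1 ACAAAG match and the Epha4 window had 1 of the same motif and 2 half-sites. The Slit1 and Unc5d windows had 1 half-site each, the Sema3a window 1 TAATTA, and the Plxna2 window 1 CAGCTG. None of the 6 held the GLI motif GACCACCCA, the site class bound by the transcription factors of the Shh pathway. These matches are letters in a window and not measured binding.

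Over all 1276 distal intervals of the axon guidance genes, the same 200-base windows had a median GC content of 45.5%, against 48% over all 104632 distal intervals. CAGATG was found in 21.9% of member windows and in 21.3% of all, and CAGCTG in 16.4% of both. ACAAAG occurred in 26.6% against 25.2% of all, and AGGTCA in 17.5% against 15.7%. TAATTA, which is composed of A and T and reads the same on both strands, stood in 7.92% of member windows and in 5.44% of all. GACCACCCA was in 4 member windows (0.313%) and in 0.341% of all. The lower GC content of member windows stood beside the higher share of TAATTA, and its part in that share was not tested.

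The next sequences are promoters, shown because Ephb3 had the highest promoter density of the 43 genes and Robo3 the lowest of those whose RefSeq start site lay in a TSS interval and whose bases could be shown. Each is the stretch before the first annotated exon, on the strand of the gene, with the same motifs in capitals and also GGGGCGGGG (GC box), CCAAT and TATAAA.

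Ephb3 promoter, chr16:21204545-21204754, plus strand: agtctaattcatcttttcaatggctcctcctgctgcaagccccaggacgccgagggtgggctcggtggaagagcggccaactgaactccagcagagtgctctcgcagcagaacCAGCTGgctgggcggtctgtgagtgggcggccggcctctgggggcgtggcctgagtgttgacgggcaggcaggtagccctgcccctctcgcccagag
Robo3 promoter, chr9:37433247-37433425, minus strand: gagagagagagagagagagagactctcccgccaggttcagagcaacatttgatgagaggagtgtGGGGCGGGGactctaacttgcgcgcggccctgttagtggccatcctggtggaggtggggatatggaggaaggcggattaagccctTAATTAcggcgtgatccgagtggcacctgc

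The Ephb3 stretch of 210 bases was 65.2% GC and held 1 CAGCTG. The Robo3 stretch of 179 bases was 58.1% GC and held 1 GC box and 1 TAATTA. RefSeq promoter windows of 300 bases were found for 35 of the 43 genes, 42 windows in all. Their median GC content was 65.7%, against 52.7% over all 32851 promoter windows of the same length. Those 32851 windows cover 27025 genes and were not limited to genes with a TSS interval. A GC box stood in 26.2% of member windows and 11.4% of all, CCAAT in 26.2% and 37.4%, and TATAAA in 4.76% and 13.6%. When windows of 200 bases were centred on TSS intervals instead, the 46 of members were 63.25% GC at the median, against 65% over all 14870 TSS intervals. These windows differ from the RefSeq ones in length, place and genes, so the comparisons were not set against each other.

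Every one of the 43 axon guidance genes had a TSS interval, against 66.7% of all protein-coding genes. Their median promoter density was 867.8 in replicate 1 and 849.9 in replicate 2 (859 ± 12.7 normalised counts per kb, SD, n = 2). The median over all genes, with genes lacking an interval at 0, was 486 ± 9.04, and 35 of the 43 lay above it. Against genes that had a TSS interval the members did not stand higher, since that median was 853 ± 20.3 and 22 of 43 were above it. Receptors had a median of 904 ± 19.9 over 25 genes and ligands 787 ± 4.02 over 18 genes.

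The member TSS intervals were long, with a median of 2035 bp for the longest one of each gene, against 1253 bp over all genes with a TSS interval. When counts were taken per interval and not per kb, the member median was 1723, against 1102 for genes with a TSS interval, and 30 of 43 were above. The place of these promoters among open promoters thus depends on whether their length is divided out.

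**Figure D1:**
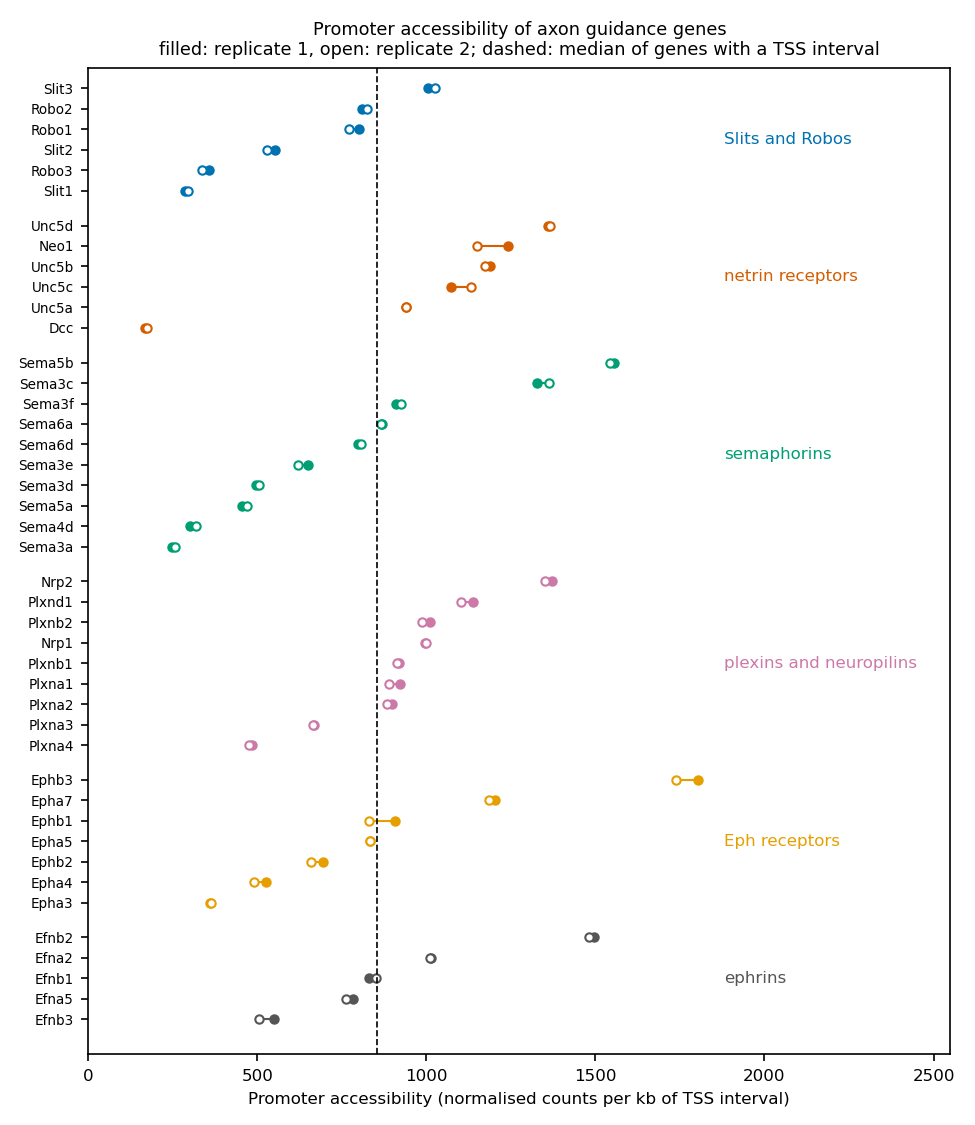
Promoter accessibility of the 43 axon guidance genes by family, in normalised counts per kb of TSS interval, with replicate 1 as filled and replicate 2 as open points. The dashed line is the median of all genes with a TSS interval, and the replicates of a gene lie close together compared with the range from 171 for Dcc to 1771 for Ephb3.

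The order of the promoters was nearly the same in both libraries, with a Spearman rho of 0.995 across 43 genes, which share both libraries and are not independent replicates. Of 42 neighbouring pairs in the order, 23 did not overlap between replicates. The first 4 places, Ephb3, Sema5b, Efnb2 and Unc5d, held 1 gene each of 4 families. When an interval within 1 kb counted as a TSS interval, Efnb2 was at 1169.6 and below Unc5d. Unc5d, Nrp2 and Sema3c (means 1364, 1361 and 1345) overlapped with their neighbours and had no order among themselves, and the lowest 7, from Sema5a down to Dcc, were each separate from the next. With counts per interval the order was another one, and Efnb2 (4692), Epha7 (3681) and Efna5 (3651) were all above Ephb3 (2018).

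Among the Slits, the secreted repellents of the midline, and their Robo receptors, the median promoter density was 663 ± 18.9, the lowest of the 6 families. Slit3 was highest, with 1004 in replicate 1 and 1024 in replicate 2. Slit1 was lowest, with 285 and 294. Slit2 (540 ± 16.7) lay between them, so that Slit3 was over 3-fold above Slit1 in both replicates. With the starts of all transcripts Slit3 fell to 572, below Robo1 and Robo2, while Slit1 stayed at 289. With counts per interval Slit2 (2056) was above Slit3 (1267), and Robo3 (510) was below Slit1 (563).

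Robo1 and Robo2, the receptors through which Slits repel, were close to each other, Robo1 with 799.6 and 769.8 and Robo2 with 808.7 and 823.5. Robo3, a diverged receptor that lets commissural axons cross the midline, was at 358 and 337 in the replicates, below the lower value of each of the other Robos. The only TSS interval of Robo1 was not at the start of the gene record, but at a start site 355 kb inside it.

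The netrin receptors had the highest family median, 1136 ± 7.51, and also the lowest gene. Unc5d, a repulsive netrin receptor, measured 1361 and 1367. Neo1 (1195 ± 65.3), which binds netrins and repulsive guidance molecules, and Unc5b (1181 ± 11.3), Unc5c (1102 ± 43.5) and Unc5a (940 ± 1.27), repulsive netrin receptors like Unc5d, were all above the median of open promoters. Dcc, the receptor for attraction by netrin-1, was far below them at 167 and 174, at the 7.33 percentile of genes with a TSS interval. No value of Dcc came near those of the other 5 receptors.

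Semaphorin promoters had a median of 718 ± 7.31 over 10 genes. Sema5b, a transmembrane semaphorin with thrombospondin repeats, was highest with 1556 and 1544, whereas its paralog Sema5a had 461 ± 10.9. Sema3a, the secreted semaphorin first known for collapsing growth cones, was lowest with 246 and 256. Both replicates of Sema5b were over 3-fold above both of Sema5a.

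The other secreted semaphorins covered the range between. Sema3c was at 1345 ± 23.9, Sema3f, which acts through neuropilin 2, at 917 ± 11.3, Sema3e, which binds plexin D1 directly, at 635 ± 21.1, and Sema3d at 499 ± 6.59. Of the membrane-bound ones, Sema6a (866 ± 2.13) and Sema6d (802 ± 6.45), ligands of class A plexins, lay near the median of open promoters, and Sema4d, the ligand of plexin B1, was at 310 ± 12.5.

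Plexins and neuropilins, the receptors of semaphorins, had a median of 918 ± 5.93, and 7 of 9 were above the median of genes with a TSS interval. Nrp2, the neuropilin for Sema3f, was highest with 1372 and 1350. Plxna4, a class A plexin that works with neuropilins for Sema3a, was lowest with 485 and 475. Nrp1, the Sema3a-binding neuropilin, was at 998 ± 2.08. With counts per interval this order changed. Nrp1 (3186) was then highest, Nrp2 (1313, in an interval of 965 bp) was below Plxnb1 (2506.5) and Plxnb2 (2310.5), and Plxna3 (775) was lowest.

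The class A plexins Plxna1 (906 ± 22.9) and Plxna2 (891 ± 11.5) overlapped, whereas Plxna3 (667 and 666) and Plxna4 were lower. Plxnb1 (916 ± 2.85), a receptor of class 4 semaphorins, overlapped with Plxna1, whereas its relative Plxnb2 (998 ± 17.4) and the Sema3e receptor Plxnd1 (1120 ± 24.8) were above them. The order of these receptors depended on the start sites used: with all transcript starts Plxnb2 was at 780 and Plxnd1 at 830, both below Plxnb1 at 916, and when an interval within 1 kb counted as a TSS interval Plxnd1 was at 674, below Plxnb1 at 841. Plxna3 is on the X chromosome, where TSS intervals of all genes had a median of 484, against 811 on autosomes.

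Eph receptors had a median of 832 ± 1.27. Ephb3, a receptor of ephrin-B ligands, measured 1804 and 1739, the highest of the 43 genes in each library. Epha3, a receptor of ephrin-A ligands, was lowest with 359 and 364. Epha4, which binds ephrins of both classes and steers limb motor axons dorsally, was also low per kb, at 527 and 490. Its TSS interval was 4469 bp long. With counts per interval Epha4 was at 2273, above Ephb3 at 2018, while Epha3 was at 478.

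Epha7 reached 1194 ± 13.5, and Ephb1 (870 ± 54.2), Epha5 (834 ± 0.695) and Ephb2 (678 ± 25.2) were intermediate. Ephb1 was above the median of open promoters in replicate 1 (908 against 868) and below it in replicate 2 (832 against 839). Epha7 and Ephb3 were above that median in both replicates, and Epha3, Epha4, Epha5 and Ephb2 were below it. Among Eph receptors that were not members, Ephb4 (1069) and Ephb6 (1361) were above it. Epha1 (650), Epha2 (401), Epha6 (302) and Epha8 (319) were below it, and Epha10 had no TSS interval. A difference between the A and B classes was not tested.

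For the ephrins the median was 840 ± 13.3. Efnb2, a transmembrane ephrin of arteries, neural progenitors and the dorsal or ventral choice of limb axons, was highest with 1496 and 1481. Efnb3, a midline ephrin, was lowest with 549 and 505. Efna2 (1013 ± 2.75) and Efna5 (782 and 761), which are held in the membrane by a lipid anchor, and Efnb1 (840 ± 13.3), on the X chromosome, lay between them. Efnb2, Nrp1 and Unc5d are on chromosome 8, where TSS intervals of all genes had a median density of 1130 ± 26.6, against 797 ± 18.2 on the other autosomes, and the part of the chromosome in their values was not tested.

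More than 1 TSS interval was found for 3 of the 43 genes (6.98%), Ephb3, Sema6a and Sema6d. The share was 5.88% over all genes and 8.82% over genes with a TSS interval. The interval at the first exon of Ephb3 (chr16:21204285-21205351) had densities of 2382 and 2275, and the one at an internal start (chr16:21210417-21211627) 1294 and 1266. In Sema6d the order was the other way, with 419 and 444 at the start of the gene record (chr2:124089807-124091104) and 1187 and 1180 at an internal start (chr2:124609723-124610982). The upstream interval of Sema6a had 986 and 975, and the internal one 333 and 367. In each of the 3 genes the stronger start exceeded the weaker in both replicates.

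Of 116 annotated start sites of protein-coding transcripts, 86 were in an interval, and 24 genes had an interval at every one of their start sites. For 40 genes the start of the gene record was covered. With only the record start, Sema6d was at 431 and Ephb3 at 2329. In Sema3a the 4 covered start sites were in 1 interval that lay 272 kb inside the gene, and the record start had none. Plxna2 was the third exception, with its interval 0.641 kb inside the record start, and the record start of Robo1 also had none.

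The axon guidance genes had many distal intervals. The median was 24 per gene, against 2 over all protein-coding genes, and 35 of the 43 (81.4%) had at least 10, against 14.4% of all genes. Efnb2 had 98, the 8th highest number of any gene, followed by Robo1 with 82, Robo2 and Efna5 with 76 each and Epha4 with 68. Plxna3 and Efnb3 had 0. Nrp2 and Plxna2 had 60 each, Epha7 52, Dcc 47, Unc5d 45 and Nrp1 44.

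These numbers follow the space around the genes. The territory of a gene, the part of the genome for which its TSS was the nearest, had a median of 362 kb for members and 46.2 kb for all genes, and the Spearman rho of territory and distal number was 0.876 over the 43 genes and 0.683 over all. Promoter density and distal number were nearly unrelated among members (rho -0.08). Neighbouring genes share borders of territory and all genes share the libraries, so these values are descriptions.

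Per unit of territory the pooled rate was close to that of other genes, while the rate of the median gene was higher. Pooled over the 43 genes there were 44.1 distal intervals per Mb of 28.9 Mb, against 38.4 over all genes and 44.4 over genes with a TSS interval. The median gene had 66.5 per Mb, against 37.9 and 48.0, and 31 of 43 members were above the rate of all genes pooled. The highest rates were those of Slit1, at 218 per Mb over 110 kb, Unc5a at 177, Ephb2 at 158 and Plxnd1 at 150. Apart from Efnb3 and Plxna3, which had no distal interval in territories of 15.1 and 20.3 kb, the lowest rates were those of Epha5 at 12.5 per Mb, Epha7 at 18.5 and Slit2 at 20.9. Size alone did not order the rates, since Efnb2 (1804 kb) had 54.3 per Mb and Epha4 (1392 kb) 48.8, and Efna2 had 74.8 in only 26.7 kb. By family, plexins and neuropilins had 76.9 per Mb pooled, and Eph receptors 32.3.

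**Figure D2:**
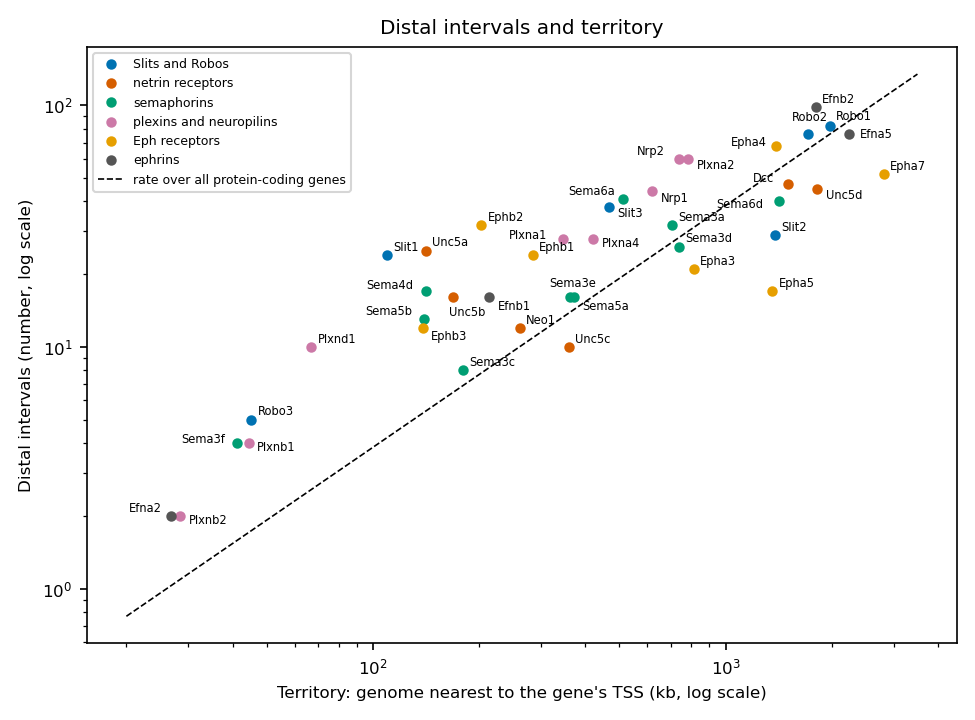
Number of distal intervals against territory in kb for the 41 axon guidance genes with at least 1 distal interval, both on log scales, coloured by family. The dashed line is the rate of 38.4 per Mb over all protein-coding genes, above which Slit1, Unc5a and Ephb2 lie farthest among genes with over 20 intervals, while Epha5 and Slit2 lie below it.

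Distal intervals of members were far from their TSS. The median distance was 126 kb, against 33.6 kb over all distal intervals, and 57.4% were over 100 kb away, against 24.8%. The farthest, of Efna5, was 1782 kb away. By the rule of assignment a distance is limited by the territory of the gene, which had a median of 362 kb for members and 46.2 kb for all genes. The distances are therefore not a trait apart from territory. Introns held 52.0% of the member intervals and 45.1% of all, and 603 of 1276 (47.3%) were within the body of the gene they were assigned to. In Robo1 51 of 82 were in its own gene body, in Dcc 37 of 47, in Efnb2 8 of 98 and in Epha7 7 of 52. Assignment by the nearest TSS is not evidence that an interval acts on that gene, most of all for those outside it.

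Summed over all intervals of the genes, distal sites held 70.0% of member counts in replicate 1 and 71.1% in replicate 2, against 44.5% and 45.4% over all intervals. The share was over 50% for 32 genes. It was 93.3% and 93.4% for Slit1, 91.0% and 91.5% for Epha3, and 89.8% and 90.0% for Dcc. It was 10.1% and 9.74% for Plxnb1, the lowest of the genes with a distal interval. Of the 3 genes with the highest shares, all had promoters in the lowest 6 of the order. The share is taken of distal and promoter counts together, so a low promoter count raises it by definition.

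The typical distal interval was of similar strength for members and for all genes. Its median density was 127 in replicate 1 and 133 in replicate 2 for members (130 ± 4.63), and 123 and 126 over all (124 ± 2.01), a difference about as large as the spread between replicates. The ratio of TSS to distal density was 6.82 ± 0.446, against 6.43 ± 0.247. A mean normalised count over 100 was reached by 416 distal intervals of members (32.6%, against 31.2% of all). A density at or above 799, the median of all TSS intervals, was reached by 58 (4.55%, against 3.16% of all). These 58 belonged to 28 genes, with 8 at Efnb2, 7 at Plxna2 and 4 at Slit1. The cut was the same for every chromosome. Efnb2 is on chromosome 8, where TSS intervals were denser (given above), and the part of the chromosome in its number was not tested.

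**Figure D3:**
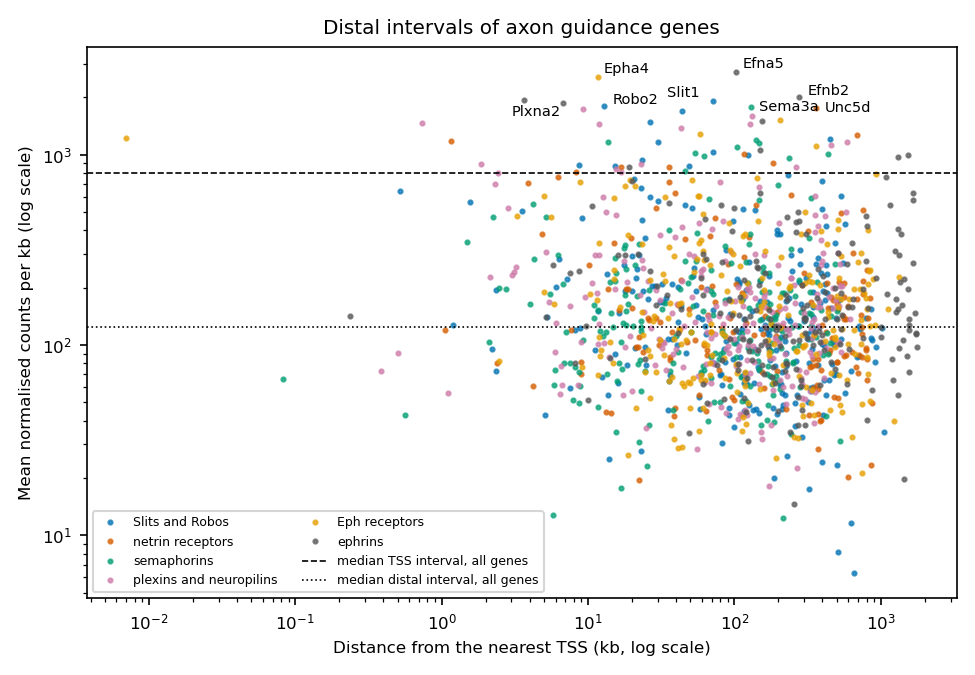
Mean density of each of the 1276 distal intervals of axon guidance genes, in normalised counts per kb, against its distance from the nearest TSS in kb, both on log scales. The dashed line is the median of all TSS intervals (799) and the dotted line that of all distal intervals (124), and the densest interval of each of 8 genes is labelled, led by Efna5 and Epha4.

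The strongest distal interval of all members was in an intron of Efna5 (chr17:62777839-62778647), 102 kb from the TSS. It measured 2707 and 2728 normalised counts per kb (2718 ± 15.0), above the highest promoter of the 43 genes, and its central bases are the first sequence above. The second, in an intron of Epha4 (chr1:77502439-77503422), 11.7 kb from the TSS, measured 2519 and 2619. In both genes these values were above the promoter of the same gene in each replicate.

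Slit1 had an intronic interval (chr19:41670091-41671649), 71.8 kb from its TSS, with 1878 and 1965. In Sema3a an intronic interval (chr5:13529176-13529700), 130 kb from the nearest TSS, had 1785 and 1775. Unc5d had one at 363 kb (chr8:28855184-28855936) with 1751 and 1764. These 3 introns thus held sites of promoter-like density at very different distances.

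In Plxna2 the densest site was an intronic interval (chr1:194629043-194629862), only 9.22 kb from the TSS, with 1658 and 1803. The densest distal interval of Efnb2, the gene with the most, was 277 kb away (chr8:8361631-8362778), in an intron of the noncoding gene Gm31135, with 1995 and 2026. Efnb2 also held intronic intervals at 3.66 kb (1927 and 1932) and 6.74 kb (1820 and 1923). The densest interval of Robo2, 12.9 kb into the gene, had 1762 and 1844. Some intervals called distal almost touched a TSS, and the densest one of Ephb3 lay 0.007 kb from a start site.

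For 20 of the 41 genes with a distal interval the densest one exceeded the promoter in both replicates, and for 19 it was below in both. Among genes with at least 10 distal intervals this held for 18 of 35 members (51.4%), against 41.6% of all such genes. A gene with more distal intervals has more chances of a strong one. In Plxnb2, which is among the 20, the densest one lay 0.74 kb from a TSS, and a margin of 1 kb was not applied to this count. The ratio of the densest distal interval to the promoter was 7.43 ± 0.126 for Dcc, 7.10 ± 0.215 for Sema3a, 6.64 ± 0.0747 for Slit1, 5.06 ± 0.396 for Epha4 and 4.22 ± 0.140 for Epha3. At the other end it was 0.0987 ± 0.0202 for Plxnb1 and 0.474 ± 0.0763 for Epha5.

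Promoter intervals are longer than distal ones, and with counts per interval 8 genes, and not 20, had a distal interval above the promoter in both replicates. Of the 20, Dcc, Epha3, Epha4, Robo1, Robo3, Sema3a and Slit1 were the 7 that remained. In Slit1 the promoter interval had 555 and 572 counts, whereas the densest distal interval had 2926 and 3064. In Epha3, Robo1 and Robo3 the interval with the most counts was another one than the densest. The densest interval of Robo1 had 1032 and 1027 counts, below its promoter with 1318 and 1270, and that of Robo3 had 507 and 571, against 525 and 495.

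**Figure D4:**
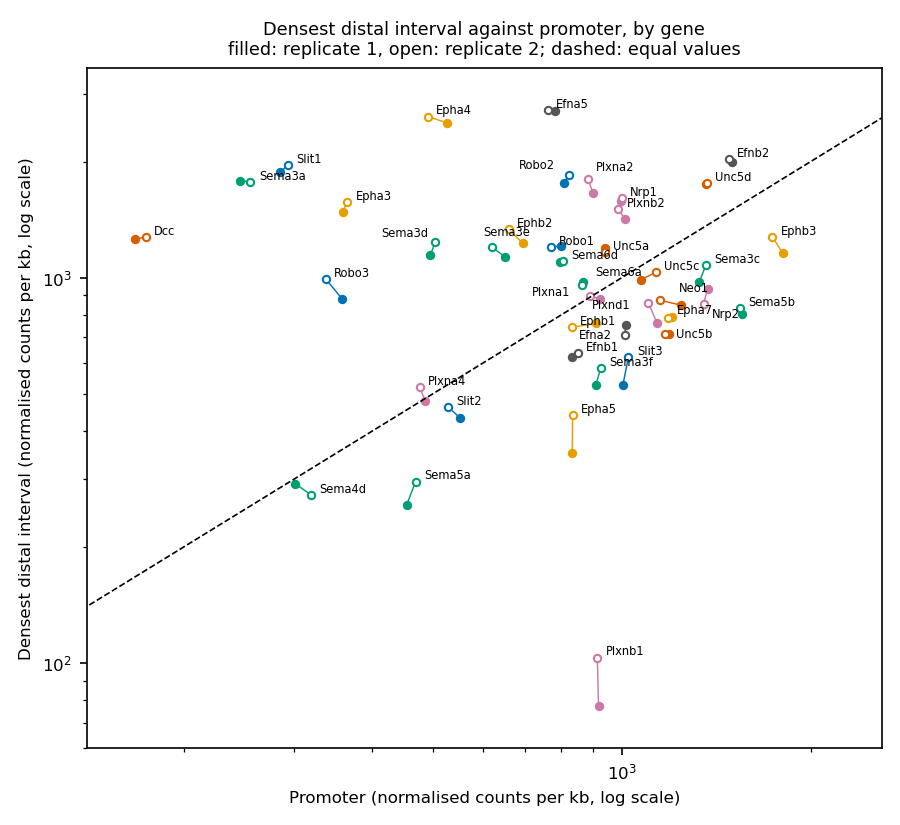
Density of the densest distal interval against promoter density, in normalised counts per kb on log scales, for the 41 axon guidance genes with a distal interval, with replicate 1 as filled and replicate 2 as open points joined by a line. The dashed line marks equal values, with Dcc, Sema3a and Slit1 farthest above it and Plxnb1 farthest below.

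Between the libraries 0 of 1322 member intervals differed by a two-sided exact binomial test, adjusted over all intervals by Benjamini-Hochberg with a limit of 0.01, and 0% of all intervals did. The lowest adjusted p of a member was 0.148. At an unadjusted p under 0.05 there were 100 member intervals (7.56%, against 7.84% of all). Where the mean normalised count was over 100, the SD of the log2 ratio was 0.15 for members and 0.14 for all, and 0 member intervals were over 1.5-fold apart.

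The 5 largest differences among member intervals above that mean of 100 were all higher in replicate 2. An intergenic interval near Robo1 (chr16:72071791-72072500) had 101 and 151 counts, a log2 ratio of 0.57. An intron of Slit1 (chr19:41697533-41697813) had 124 and 180 counts (0.53), and a site 1320 kb from Efnb2 (chr8:7318668-7318969) 101 and 145 (0.52). Intervals near Sema3e (chr5:13982066-13982945) and Epha7 (chr4:28607580-28608170) followed, with 144 and 203 counts (0.49) and 90 and 122 counts (0.43). Of the 416 distal member intervals over the mean of 100, 267 (64.2%) were higher in replicate 2, against 54.4% of all such intervals, while 18 of 46 member TSS intervals were, against 33.3% of all. Promoter and distal signal thus leaned to different libraries, for members as for all genes, and the source of this was not tested.

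Of 66 further genes of the same pathways, which were not members, 60 (90.9%) had a TSS interval. Their median promoter density was 711 ± 16.1, and 25 were above the median of genes with a TSS interval. Ntn1, the ligand of Dcc, had 723 and 684. The median number of distal intervals was 8.5 in a median territory of 96.0 kb. The highest promoter was that of Farp2, a cytoplasmic effector of plexins, at 2309 ± 68.3. Ntn5, Robo4, Plxnb3, Epha10, Flrt1 and Hgf had no TSS interval.

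Promoters of marker genes were also measured, which show openness and not expression. All 4 progenitor markers had a TSS interval, as did 66.7% of all protein-coding genes. Their densities lay between 613 for Pax6 and 1452 for Nkx6-1, with Olig2 at 946 ± 23.2. The pluripotency genes Pou5f1 and Nanog had none, although Zfp42 had one at 237 ± 4.87. Among neuronal markers Isl1 (1087 ± 36.9), Tubb3 (714 ± 1.57) and Mnx1 (557 ± 52.1) had one and Chat had none. Of the p3 and floor plate markers, Nkx2-2 (879 ± 27.5) and Foxa2 (584 ± 54.0) had one and Shh had none. Cdx2 (294 ± 5.86) and T (204 ± 33.4), of neuromesodermal cells, and Pdgfra (860 ± 39.6) and Col1a2 (123 ± 8.76), of fibroblasts, had one and Col1a1 had none. Isl1, Tubb3, Nkx2-2 and Pdgfra lay within the range of the progenitor markers, so these values do not identify the sorted cells. The part of cells other than progenitors in the values of axon guidance genes was not tested.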

How the data were processed

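ATAC-seq was measured in 2 replicate libraries of 1 group. The deposited values are raw counts of fragments per consensus interval, made by the authors, per the file header, with featureCounts 2.0.1 on mm10 with a minimum overlap of 0.2 of the fragment. The table had 5 libraries, of which 3 columns belonged to no sample here and were not used, but they had a part in defining the interval set. Intervals came from called peaks (MACS, by the study's methods), so sites too weak to be called are missing. The submitters' processing notes also name DESeq2. Counts were divided by size factors of DESeq2 (1.42.0). The density of a gene's promoter was the sum of its TSS intervals' counts over their summed length. A median in the text is the mean of the medians of both replicates. An interval equally near to more than 1 gene went to each.

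Start sites were those of protein-coding transcripts (GENCODE vM21). Genes on the mitochondrial genome were left out. Intervals were annotated with bedtools 2.31.1, in the order coding exon, UTR, other exon, intron. The two-sided exact binomial test set both counts of an interval against the size-factor share and was checked on simulated data. It compares libraries and not conditions. Fragments had no molecular identifiers, so it covers counting error only. Python 3.11.15, numpy 2.4.6, pandas 2.3.3, scipy 1.17.1, matplotlib 3.10.9, R 4.3.3 and edgeR 4.0.16 (TMM factors) were used.

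All members were named, with both replicates for the highest and lowest promoter of each family, genes with most or no distal intervals or several TSS intervals, the densest distal interval per family and the 5 largest replicate differences. Others named with values were chosen after these were seen. The members, the wider list and the markers were chosen with earlier results of these data known. Alternatives were the start sites, a 1 kb margin, the normalisation, counts per interval, a minimum mean count of 10, a limit of 100 kb and leaving out a replicate. No set of genes was tested against others, since genes are not replicates. Some members' promoter sequences were not used here.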

Additional observations from a re-analysis of the deposited data

How the results depend on the processing

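Of 58 alternative values of 9 results, 46 stayed within the replicate SD, the counting interval or 1.5 times the count, and 12 moved. The 46 include medians and ratios without 1 replicate, which lie within the SD of 2 values by construction. They also include the median over members with a TSS interval, which could not change because every member had one. The median promoter density of the 43 genes, 859, was 823 with the starts of all transcripts, 834 with only the start of the gene record, 834 when an interval within 1 kb counted as a TSS interval, 896 with the TSS interval of highest density and 1723 as counts per interval. The ratio of TSS to distal density was 6.35 with the starts of all transcripts and 27.6 with counts per interval, and the median distal density was then 56.0 counts per interval. With the nearest TSS no more than 100 kb away there were 590 intervals, a median distal density of 145, 69.4 distal intervals per Mb and 33 distal intervals at or above the median TSS density.

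Without 1 replicate the median promoter density ranged from 850 to 868, the median distal density from 127 to 133 and the ratio from 6.51 to 7.14. TMM and total counts moved none of the values computed with them. The binomial test called 0 member intervals under each of its 3 alternatives, with 97 to 108 at an unadjusted p under 0.05. For single promoters, 281 of 301 values stayed within the replicate SD. Counts per interval were not among these 301 and changed the order of the promoters, as given above. The values without 1 replicate, 43 for each replicate, are among the 281 and could not move by construction. Those of Slit3 and Sema6d (given above) and Plxnd1 moved by over 1.5 times, and Plxna2, Robo1 and Sema3a had no interval at the record start. The count of genes with a distal interval above the promoter was 20, and under alternatives chosen after seeing the data it was 8 with counts per interval, 18 with the densest TSS interval or only the gene record start, and 22 with all transcript starts. Both libraries had similar depth, so depth did not separate them, and intervals near the lowest member count of 2 have little precision. No paired analysis was possible because the replicates form a single group.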
